A study of Mus musculus with 12 samples.

Results

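The integrin chains, their cell-surface ligands and the adhesion kinases were followed in a mouse model of T-cell acute lymphoblastic leukaemia (T-ALL). The members were 35 named genes in 5 classes: 18 integrin alpha chains, 8 beta chains, the integrin activators Tln1 and Fermt3, 5 ligands and adhesion receptors (Icam1, Icam2, Vcam1, Selplg and Cd44), and the kinases Ptk2 and Ptk2b. All 35 were among the 54351 genes of the deposited table, and 34 of them were among the 20897 genes with enough counts to be tested. Itga8 was not tested, since its level was 1.11 CPM (counts scaled to the TMM-adjusted library total) or less in every library and no count was found in LN3 thymus 1 or 2.

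Integrins are receptors made of 1 alpha and 1 beta chain, and the pairing decides what a cell can hold on to. Chains of the beta 2 family bind ICAM proteins on other cells, beta 1 chains bind mainly matrix proteins and VCAM1, and beta 7 chains bind E-cadherin or the mucosal addressin. Talin and kindlin switch the receptors on from inside the cell, and the focal adhesion kinases pass the signal of a bound receptor on. In T cells these receptors serve migration through the thymus, arrest on vessel walls and the contact with antigen-presenting cells.

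The samples are labelled C57BL/6, and the design text gives C57BL/6J for the tumour-free controls. The 4 groups of 3 libraries were leukaemic cells from the thymus of sick mice labelled LN3 (LN3 thymus), leukaemic cells from the spleen of such mice (LN3 spleen), thymocytes of tumour-free wild-type mice (WT thymocytes), and spleen cells of tumour-free wild-type mice enriched for CD8 T cells by negative selection (WT CD8). LN3 is known as a model that combines an LMO2 transgene with a NUP98-HOXD13 fusion transgene. The labels give no treatment, age or promoter of the transgenes. The LN3 cells and the thymocytes were dissociated from the organ without enrichment, whereas the CD8 cells had a stated purity of 85 to 95%. Whether the 3 samples of a group were taken from different mice is not stated, so every p-value rests on the spread among the samples at hand, and this spread may be technical.

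Total counts ran from 12694571 to 42483898 per library. The 10 T-cell markers summed to 3765 to 7374 CPM in LN3 thymus, 4561 to 5076 in LN3 spleen, 4207 to 8629 in WT thymocytes and 2161 to 3227 in WT CD8 libraries, so the labelled lineage was present throughout. Several libraries stood apart. WT thymocytes 3, LN3 spleen 1 and LN3 thymus 2 had levels that rose with the GC content of genes, by 0.933, 0.412 and 0.354 on the log2 scale per 10 percentage points, against 0.0396 or less elsewhere. The gene CT010467.1 took 10.5% of the counts in LN3 thymus 2 and 9.71% in LN3 spleen 1. Its share was 4.61 to 5.11% in LN3 thymus 3, LN3 spleen 2 and 3 and WT thymocytes 3, and 0.44 to 1.45% elsewhere. Its part in the scaling was not tested. WT CD8 1 and 2 carried RNA of other spleen cells: 12 genes of red pulp macrophages, listed after their values were seen, summed to 1163 and 1189 CPM there against 133.7 CPM in WT CD8 3, and all 12 were detected in each. NK-cell markers summed to 770.9 CPM in WT CD8 1 and to 286.1 and 303.2 CPM in WT CD8 2 and 3. LN3 spleen 1 had 6945 CPM of B-cell, 2152 CPM of myeloid and 1768 CPM of dendritic-cell markers, against 495.8 to 987.5, 412.8 to 591 and 337.6 to 554.1 CPM in LN3 spleen 2 and 3. It was also the LN3 spleen library with the highest Itgam, Itgax, Itgb7, Icam1, Selplg and Cd44, and the part of other cells in these levels was not tested. Erythroid markers summed to 1928 to 6512 CPM in LN3 spleen and to 10.25 to 153 CPM in LN3 thymus. In the controls they varied widely, at 3937, 14.29 and 1498 CPM in WT thymocytes 1 to 3 and 138.2, 709 and 41.16 CPM in WT CD8 1 to 3.

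Leukaemia samples held less RNA than their controls of most adhesion genes that were called, with Itga9 as the exception in the thymus. In the spleen, samples without enrichment were set against enriched CD8 cells. Leukaemia, cell type and enrichment therefore cannot be told apart there. In the thymus, 8 markers of CD4 and CD8 double-positive thymocytes summed to 1111 to 2157 CPM in LN3 and 8351 to 12350 CPM in controls. Of these, 7 were lower in LN3 thymus and 1 was higher (median log2 difference −2.43). The part of thymocyte stage in the thymus differences was not tested. A gene was called when its adjusted p from edgeR's quasi-likelihood test with Benjamini-Hochberg adjustment over all tested genes was below 0.05. This test gave every adjusted p below unless another is named. In LN3 thymus against WT thymocytes, 1 of 34 members was called higher (Itga9) and 8 were called lower (Itga1, Itgae, Itgal, Itgb2, Icam1, Icam2, Cd44 and Ptk2). Over all tested genes 11.3% were called, 6.06% higher and 5.21% lower. The median log2 difference of the members was −0.72 against −0.04 over all tested genes. In LN3 spleen against WT CD8 cells, 13 members were called lower and 0 higher. Of all tested genes 30.9% were called there, 17.9% higher and 13.0% lower, and the medians were −0.81 and −0.11. By level alone, 2 members were higher and 12 lower in all LN3 thymus libraries than in all WT thymocyte libraries, where 14.4% of all tested genes were higher and 12.8% lower. In the spleen 2 members were higher and 18 lower in this way, against 27.5% and 30.8% of all tested genes. At an unadjusted p below 0.05, 20 of 34 members (58.8%) differed in the spleen and 14 (41.2%) in the thymus, against 43.7% and 24.7% of all tested genes.

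The counts changed with the libraries used. Leaving out each of the 12 libraries in turn gave 2 to 10 members called in the thymus, with 2 without LN3 thymus 1, and 6 to 13 in the spleen, with 6 without WT CD8 1. Without the 3 libraries with the GC rise, 5 members were called in the thymus and, with 2 higher and 12 lower, 14 in the spleen. With WT CD8 3 as the only CD8 control, whose spread is then assumed to be that of the other groups, 5 members were called in the spleen, namely Itga2, Itgae, Itgb7 and Icam1 lower and Itga9 higher. Scaling by library totals instead of TMM factors shifted the median of all genes to −0.235 in the thymus and −0.506 in the spleen. The share of calls that were higher then fell from 53.8% to 38.2% in the thymus and from 58.0% to 40% in the spleen, and upper-quartile factors gave 41.2% and 41.7%. Both thymus and spleen differences are plotted for the 34 members.

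**Figure D1:**
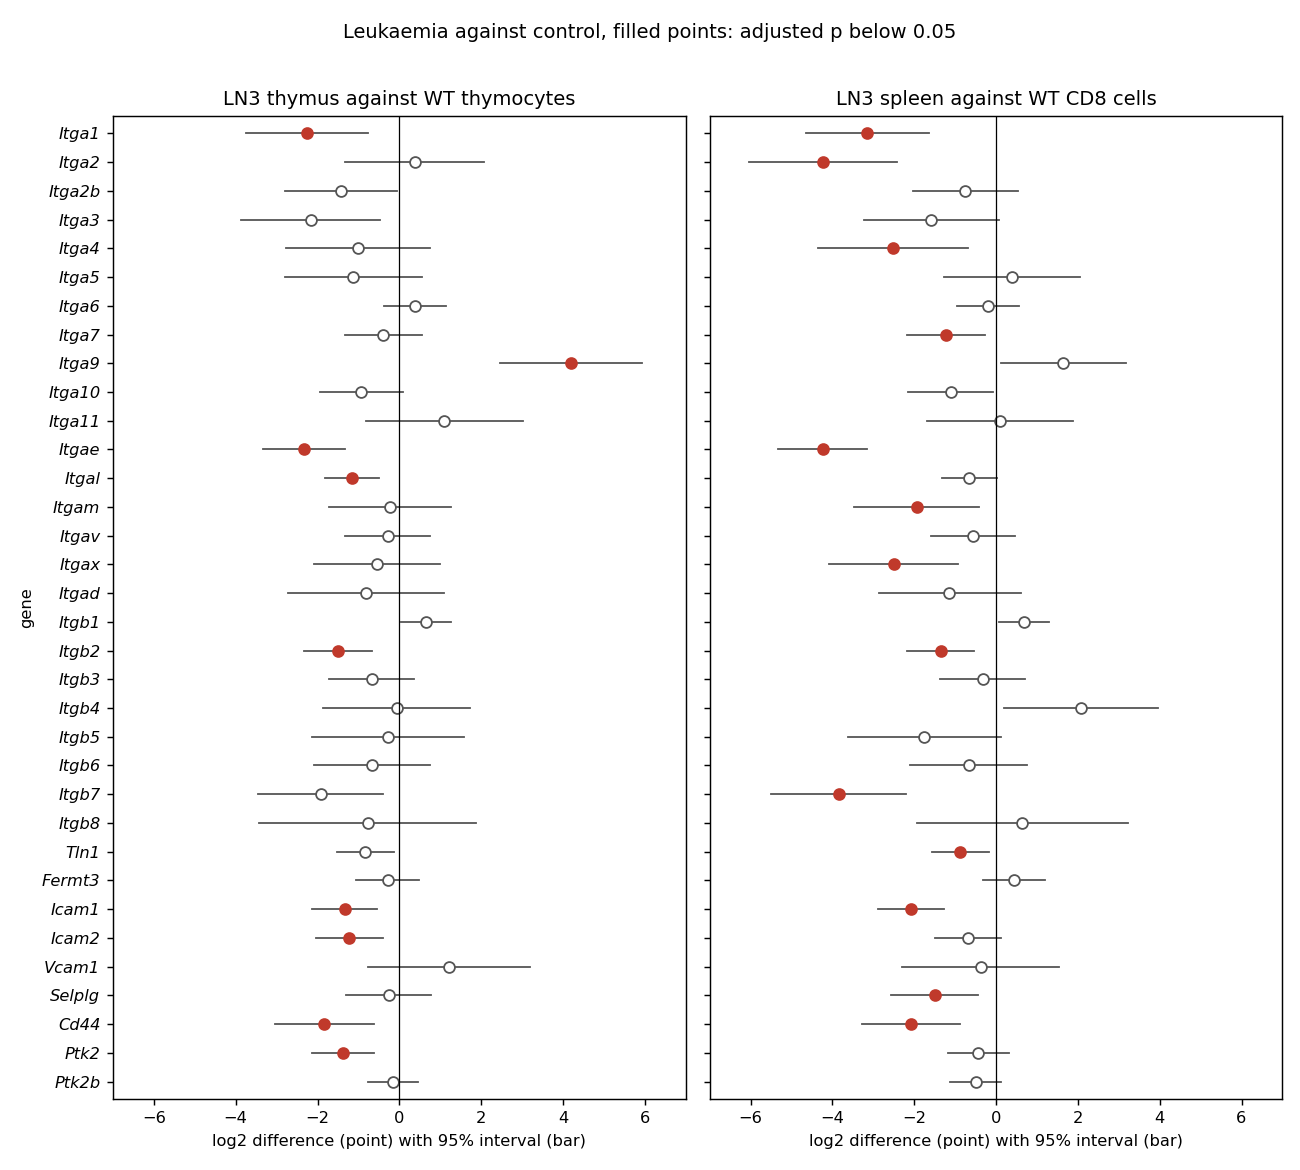
Log2 difference (x axis) of each tested member (y axis) in LN3 thymus against WT thymocytes and in LN3 spleen against WT CD8 cells, with 95% intervals as bars and called genes as filled points. Of the filled points, Itga9 in the thymus lies to the right of 0 and the other 8 thymic and 13 splenic ones to the left.

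The beta 2 integrin LFA-1, made of Itgal and Itgb2, is the main receptor by which T cells bind ICAM proteins. Itgb2 measured 75.5, 149 and 181 CPM in LN3 thymus 1 to 3 and 314, 260 and 568 CPM in WT thymocytes 1 to 3. All LN3 thymus libraries were below all thymocyte libraries, by 2.82-fold (log2 difference −1.50, SE 0.36, adjusted p = 0.0171). The call ended without LN3 thymus 1 (adjusted p = 0.0546), in the fit of these 2 groups alone (adjusted p = 0.0631) and when the 3 libraries with the GC rise were left out (log2 difference −1.13, adjusted p = 0.12). In bulk RNA, fewer cells of a type and less RNA per cell cannot be told apart. In LN3 spleen Itgb2 measured 227, 168 and 195 CPM against 555, 522 and 430 CPM in WT CD8 1 to 3. These groups did not overlap either, and the difference was 2.55-fold (log2 difference −1.35, SE 0.35, adjusted p = 0.0124). The spleen call ended without LN3 spleen 2 or WT CD8 1 (adjusted p up to 0.052) and with WT CD8 3 as the only control (log2 difference −1.12, adjusted p = 0.215).

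Itgal, the alpha chain of LFA-1, measured 313, 399 and 412 CPM in LN3 thymus and 686, 714 and 1123 CPM in WT thymocytes. The leukaemia libraries were again all lower, by 2.25-fold (log2 difference −1.17, SE 0.29, adjusted p = 0.0213). The call ended without any of LN3 thymus 1, 2 or 3 (adjusted p up to 0.076), in the fit of these 2 groups alone (adjusted p = 0.059), with WT CD8 3 as the only CD8 library (adjusted p = 0.062) and when the 3 libraries with the GC rise were left out (adjusted p = 0.0957). In the spleen Itgal measured 382, 389 and 639 CPM in LN3 and 736, 806 and 664 CPM in WT CD8 cells, with LN3 spleen 3 just below WT CD8 3. The spleen difference of −0.65 was not called (adjusted p = 0.102, 95% interval −1.31 to 0.02), but was called lower under library totals, under upper-quartile factors and without LN3 spleen 3, with an adjusted p down to 0.0056.

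The beta 1 chain went the other way in level, without reaching the threshold. Itgb1, the common partner of the matrix-binding alpha chains, measured 275, 327 and 302 CPM in LN3 thymus and 198, 151 and 226 CPM in WT thymocytes. The spleen values were 297, 328 and 430 CPM in LN3 and 282, 216 and 159 CPM in WT CD8 cells. The LN3 libraries lay above their controls in both organs. The log2 differences were 0.65 (SE 0.26, adjusted p = 0.141) and 0.68 (SE 0.26, adjusted p = 0.0645), so neither was called. The spleen difference was called without WT thymocytes 2, without WT thymocytes 3, without the 3 libraries with the GC rise and by limma, with an adjusted p down to 0.0368.

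The make-up of the beta-chain pool was therefore compared library by library, using CPM per kilobase of transcript so that genes of different length can be set side by side. Itgb1 made up 68.3, 54.9 and 45.5% of the summed beta-chain level in LN3 thymus 1 to 3 and 25.8, 23.7 and 17.6% in WT thymocytes 1 to 3. In the spleen its share was 40.4, 52.8 and 60.0% in LN3 and 15.7, 13.8 and 10.2% in WT CD8 cells. Itgb1 was thus the most abundant beta chain per length in all 6 LN3 libraries and in none of the 6 controls. Itgb2 held 30.4% ± 5.6 (SD, n = 3) in LN3 thymus and 54.0% ± 2.6 in WT thymocytes, but 36.4% ± 2.72 in LN3 spleen and 39.3% ± 3.61 in WT CD8 cells. Itgb7 held 6.94% ± 4.43 in LN3 thymus, 17.3% ± 1.86 in WT thymocytes, 7.10% ± 5.69 in LN3 spleen and 44.1% ± 7.17 in WT CD8 cells.

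The Itgb1 share was higher in leukaemia by 33.9 percentage points in the thymus and by 37.8 in the spleen. Leaving out each library in turn gave 27.9 to 39.3 and 33.4 to 43.2 points. An exact two-sided permutation test of 3 against 3 libraries gave p = 0.1 for each, the smallest it allows, and 0.187 after adjustment over 28 such tests. Among alpha chains Itgal held the largest share per kilobase in all 12 libraries, at 53.1% ± 11.5 in LN3 thymus, 66.0% ± 6.8 in WT thymocytes, 51.9% ± 13.3 in LN3 spleen and 37.9% ± 1.66 in WT CD8 cells. Itga6 followed in LN3 thymus with 22.9% ± 7.66 against 9.95% ± 0.843 in WT thymocytes (exact p = 0.1, adjusted 0.187). Without division by length, Itga4 was above Itgal in WT CD8 1 to 3, at 36.5, 37.7 and 43.4% against 31.5, 33.5 and 32.7%. The shares are sums over all cells in a sample, and the part of cells other than T cells in them was not tested.

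**Figure D2:**
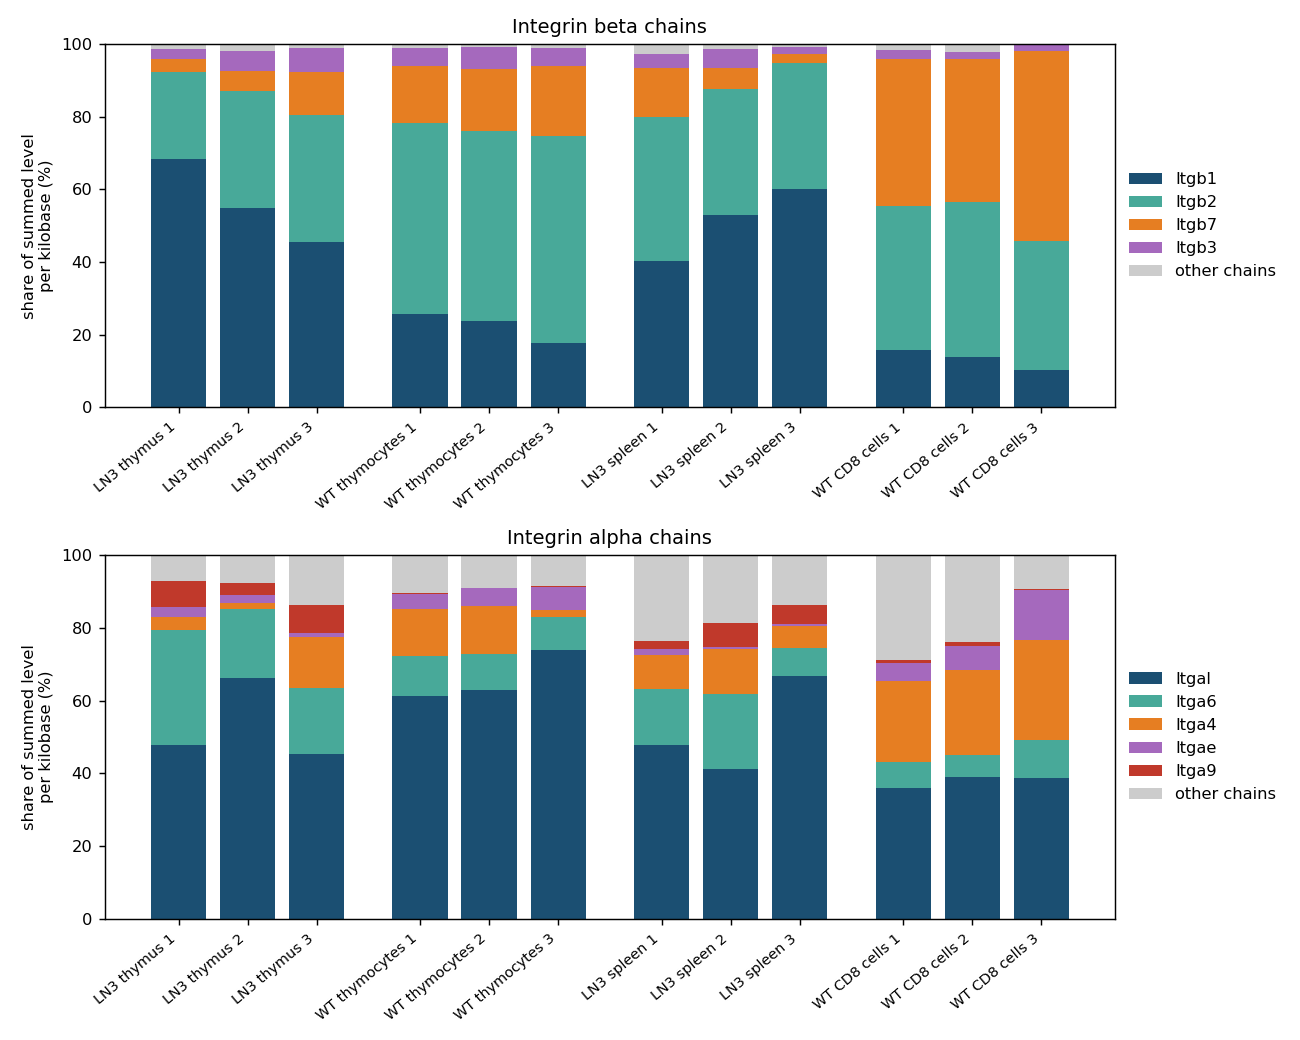
Share of each chain (y axis, percent) in the summed level per kilobase of all beta chains (top) and all alpha chains (bottom) in each of the 12 libraries (x axis). Itgb1 takes 40.4 to 68.3% of the beta pool in LN3 libraries and 10.2 to 25.8% in controls, where Itgb2 and, in WT CD8 cells, Itgb7 take most of the rest.

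Itga9 pairs with beta 1 and binds osteopontin, tenascin C and VCAM1. It measured 62.4, 26.6 and 96.2 CPM in LN3 thymus and 3.31, 2.88 and 3.96 CPM in WT thymocytes. Every leukaemia library exceeded every thymocyte library, by 18.3-fold on the fitted scale (log2 difference 4.19, SE 0.75, adjusted p = 0.00365), and the call held in all 22 alternatives. In LN3 spleen the levels were 21.3, 83.0 and 68.7 CPM against 25.4, 26.4 and 3.85 CPM in WT CD8 1 to 3. The groups overlapped through LN3 spleen 1, and the difference of 1.64 was not called (adjusted p = 0.0759). The 2 high controls were the 2 with the high macrophage markers; against WT CD8 3 alone the difference was 3.91 (adjusted p = 0.023). It was also called without LN3 spleen 1, without the 3 libraries with the GC rise, by DESeq2 and by limma. The part of macrophage RNA in the control level was not tested. The gene lies on chromosome 9 of GRCm38, from 118606690 to 118901003.

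Itga4 pairs with beta 1 to bind VCAM1 and fibronectin and with beta 7 to bind the mucosal addressin. In the spleen it measured 142, 215 and 107 CPM in LN3 and 853, 904 and 881 CPM in WT CD8 cells. The groups were far apart, by 5.70-fold (log2 difference −2.51, SE 0.80, adjusted p = 0.0306), yet the call ended without LN3 spleen 1 or 3 or without any of WT CD8 1 to 3 (adjusted p up to 0.116) and against WT CD8 3 alone, where the difference was about the same (−2.50, adjusted p = 0.179). The spleen call also ended with the replicate number added to the fit as a block (adjusted p = 0.0589) and with no filter on low counts. In the thymus the levels scattered, at 45.7, 17.9 and 238 CPM in LN3 and 273, 277 and 54.6 CPM in WT thymocytes. LN3 thymus 3 and WT thymocytes 3 crossed over between the groups. The difference of −1.0 was not called (adjusted p = 0.465); without LN3 thymus 3 it was called lower (adjusted p = 0.0283).

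Itga6, a laminin receptor chain, measured 172, 93.8 and 136 CPM in LN3 thymus, 100, 91.8 and 115 CPM in WT thymocytes, 102, 160 and 60.6 CPM in LN3 spleen, and 122, 104 and 146 CPM in WT CD8 cells. All groups overlapped, and neither difference was called (0.38, adjusted p = 0.527; −0.20, adjusted p = 0.647). Its higher share of the thymic alpha pool thus stood beside lower levels of other chains. Itga5, the fibronectin receptor chain, ran from 5.05 to 45.3 CPM in LN3 libraries and from 12 to 52.0 CPM in controls, and was not called (thymus −1.13, adjusted p = 0.38; spleen 0.38, adjusted p = 0.698). Without LN3 thymus 3 its thymus difference was called lower (adjusted p = 0.038).

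Itga1 and Itga2 are the collagen-binding partners of beta 1, found on activated T cells and NK cells. Itga1 measured 0.546, 0.496 and 0.732 CPM in LN3 thymus and 4.59, 2.52 and 1.55 CPM in WT thymocytes, with no overlap. It was 4.79-fold lower (log2 difference −2.26, SE 0.65, adjusted p = 0.0412). The thymus call ended without any of LN3 thymus 1 to 3, WT thymocytes 1 or 2, or WT CD8 1 or 2 (adjusted p up to 0.176). That call also ended with the replicate number as a block (adjusted p = 0.0603), in the fit of these 2 groups alone (adjusted p = 0.0556) and by limma. In LN3 spleen it measured 3.31, 1.10 and 0.569 CPM against 17.5, 17.3 and 8.45 CPM in WT CD8 cells, 8.87-fold lower (log2 difference −3.15, SE 0.65, adjusted p = 0.00341). Against WT CD8 3 alone the difference was −2.35 and not called (adjusted p = 0.11).

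Itga2 measured 2.18, 0.811 and 0.911 CPM in LN3 spleen and 45.8, 14.1 and 11.5 CPM in WT CD8 1 to 3. It was 18.7-fold lower (log2 difference −4.22, SE 0.79, adjusted p = 0.00192), and the call held in all 22 alternatives. WT CD8 1, the highest library, was also the highest in the NK-cell receptor gene Ncr1, at 91.4 CPM against 15.7 and 8.12 CPM in WT CD8 2 and 3. Ncr1 was at 1.48 CPM or less in the LN3 spleen libraries, and the part of NK cells in the Itga2 difference was not tested. In the thymus Itga2 stayed at 1.86 CPM or less in all 6 libraries and was not called (0.37, adjusted p = 0.812). The remaining partners of beta 1 were low: Itga3, Itga7, Itga10 and Itga11 were at 6.71 CPM or less everywhere. Of these, only Itga7 in the spleen was called, at 2.27, 2.66 and 1.76 CPM in LN3 against 4.26, 5.88 and 5.50 CPM in WT CD8 cells (log2 difference −1.22, adjusted p = 0.0415). Leaving out any of the 6 spleen libraries, LN3 thymus 3 or WT thymocytes 1 ended that call (adjusted p up to 0.139). So did the replicate number as a block (adjusted p = 0.0716), limma and no filter on low counts. Itga3 in the thymus was not called (−2.17, adjusted p = 0.0785), with the LN3 libraries at 0.420 to 1.24 CPM and the thymocytes at 2.16 to 6.71 CPM; it was called lower without LN3 spleen 3, by DESeq2 and by limma (adjusted p down to 0.0148). Itga10 in the spleen was not called either (−1.11, adjusted p = 0.0763), but was called lower in 5 of 22 alternatives.

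Both chains of the beta 7 integrin for E-cadherin were lower in LN3 spleen. Itgae, which pairs with beta 7 to hold T cells to E-cadherin on epithelium, measured 12.3, 9.51 and 7.18 CPM in LN3 thymus and 33.6, 41.2 and 71.1 CPM in WT thymocytes. In the spleen it measured 9.77, 4.69 and 4.16 CPM in LN3 and 72.9, 102 and 172 CPM in WT CD8 cells. No LN3 library reached its controls. Itgae was 5.02-fold lower in the thymus (log2 difference −2.33, SE 0.43, adjusted p = 0.00456) and 18.8-fold lower in the spleen (log2 difference −4.23, SE 0.47, adjusted p = 7.29e-05). Both calls held in all 22 alternatives.

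Itgb7, the partner chain, measured 69.2, 25.1 and 11.2 CPM in LN3 spleen and 514, 434 and 572 CPM in WT CD8 cells. It was 14.5-fold lower (log2 difference −3.85, SE 0.72, adjusted p = 0.0019), a call that held in all 22 alternatives. In LN3 thymus the 3 libraries measured 9.58, 23.2 and 55.6 CPM and the thymocytes 84.4, 76.2 and 174 CPM, again without overlap. The thymus difference of −1.92 was not called (adjusted p = 0.0851), but was under library totals, without LN3 thymus 3, without LN3 spleen 1 and by DESeq2, with an adjusted p down to 0.0289. The LN3 libraries themselves differed by several fold in this gene in both organs.

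The promoters of the genes on which these contrasts turn are shown for reference: Itgb7 and Icam1, which were called lower in the spleen in every alternative, Cd44, which was called in all 4 pairs of groups compared, and Itgb1, whose share of the beta pool was higher. The sequences are the 250 bases upstream of the RefSeq start on GRCm38.p6, 5′ to 3′ on the gene's strand. Capitals mark any of 5 motifs, searched on both strands: TGGGAA (RBPJ), TGTGGT (RUNX), CCGGAA (ETS), GGGCGG (Sp1) and CACGTG (Myc E-box).
Itgb7 (chr15:102231936-102232185, minus strand): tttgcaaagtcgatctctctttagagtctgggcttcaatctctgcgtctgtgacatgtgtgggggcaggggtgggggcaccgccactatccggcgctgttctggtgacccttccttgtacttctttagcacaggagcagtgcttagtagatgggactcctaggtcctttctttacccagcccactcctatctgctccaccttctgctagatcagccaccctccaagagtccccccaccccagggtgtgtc
Icam1 (chr9:21015690-21015939, plus strand): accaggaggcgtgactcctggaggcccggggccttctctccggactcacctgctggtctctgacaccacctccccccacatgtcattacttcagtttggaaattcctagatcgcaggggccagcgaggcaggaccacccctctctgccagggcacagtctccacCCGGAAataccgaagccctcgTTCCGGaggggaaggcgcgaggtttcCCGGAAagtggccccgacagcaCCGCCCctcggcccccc
Cd44 (chr2:102901666-102901915, minus strand): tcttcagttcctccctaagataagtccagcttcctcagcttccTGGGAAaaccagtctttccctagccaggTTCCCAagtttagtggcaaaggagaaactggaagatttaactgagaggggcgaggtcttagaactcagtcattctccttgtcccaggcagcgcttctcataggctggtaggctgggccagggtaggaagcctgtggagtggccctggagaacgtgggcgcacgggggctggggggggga
Itgb1 (chr8:128685404-128685653, plus strand): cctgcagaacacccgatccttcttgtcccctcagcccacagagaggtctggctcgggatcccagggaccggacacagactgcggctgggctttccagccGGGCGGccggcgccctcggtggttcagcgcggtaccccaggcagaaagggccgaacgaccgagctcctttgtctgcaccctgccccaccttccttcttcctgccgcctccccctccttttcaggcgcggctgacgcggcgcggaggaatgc
Icam1 held 3 ETS matches and 1 Sp1 match, Cd44 held 2 RBPJ matches, Itgb1 held 1 Sp1 match, and Itgb7 held none of the 5 motifs. No 2 matches overlapped. Among 32536 RefSeq promoter windows of the same length, 21.6% held the RBPJ motif, 14.0% the RUNX, 12.1% the ETS, 33.0% the Sp1 and 6.04% the Myc motif. A window was found for 22 of the 35 members by symbol, of which 2 held the RBPJ, 3 the RUNX, 2 the ETS, 7 the Sp1 and 0 the Myc motif. A match is a description of letters and not a bound site.

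Itgam, Itgax and Itgad are the beta 2 partners of myeloid cells, and lie side by side on chromosome 7 from 128062640 to 128223816 (GRCm38), on the same chromosome as Itgal at 127296260 to 127335138. Itgam measured 42.5, 17.6 and 20.6 CPM in LN3 spleen and 117, 175 and 17.2 CPM in WT CD8 1 to 3. Itgax measured 17.7, 11.6 and 6.38 CPM in LN3 spleen and 128, 52.1 and 21.7 CPM in the controls. Both were called lower in LN3 spleen (Itgam −1.94, adjusted p = 0.0411; Itgax −2.50, adjusted p = 0.0158). Within the controls both were higher in the 2 libraries with high macrophage markers than in WT CD8 3, whose 17.2 CPM of Itgam lay just below all 3 LN3 spleen libraries. Itgax differed between WT CD8 1 and 2 although their macrophage sums were close. The part of macrophages in these differences was not tested. Against WT CD8 3 alone the Itgam difference was 0.66, in the other direction (adjusted p = 0.565), and the Itgax difference was −0.85, not called (adjusted p = 0.528). The Itgam call also ended without LN3 thymus 2, LN3 spleen 2 or 3, any of WT thymocytes 1 to 3, or WT CD8 1 or 2 (adjusted p up to 0.17). Further settings that ended it were the replicate number as a block (adjusted p = 0.0808) and the fit of the 2 groups alone (adjusted p = 0.0834). So did leaving out the 3 libraries with the GC rise (adjusted p = 0.0756), limma and no filter on low counts. The Itgax call also ended without LN3 spleen 3 or WT CD8 1 (adjusted p up to 0.103), and without the 3 libraries with the GC rise (adjusted p = 0.0515). In the thymus neither was called (−0.23, adjusted p = 0.872; −0.54, adjusted p = 0.681).

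Itgad, a chain of spleen macrophages, measured 34.5, 18.0 and 31.0 CPM in LN3 spleen and 0.210, 0.579 and 2.39 CPM in LN3 thymus. The controls measured 87.1, 84.6 and 11.8 CPM in WT CD8 cells and 1.76, 1.04 and 3.18 CPM in WT thymocytes. Both spleen groups were above both thymus groups, and LN3 did not differ from its control beyond the spread in either organ (thymus −0.81, adjusted p = 0.609; spleen −1.14, adjusted p = 0.255). Itgb5, a partner of alpha v, measured 25.8, 28.0 and 3.48 CPM in WT CD8 1 to 3 and 0.840 to 9.24 CPM in the 6 LN3 libraries. It was not called in leukaemia against control (thymus −0.28, adjusted p = 0.874; spleen −1.75, adjusted p = 0.113); without WT CD8 3 the spleen difference was called lower (adjusted p = 0.0428), and against WT CD8 3 alone it was 0.72.

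**Figure D3:**
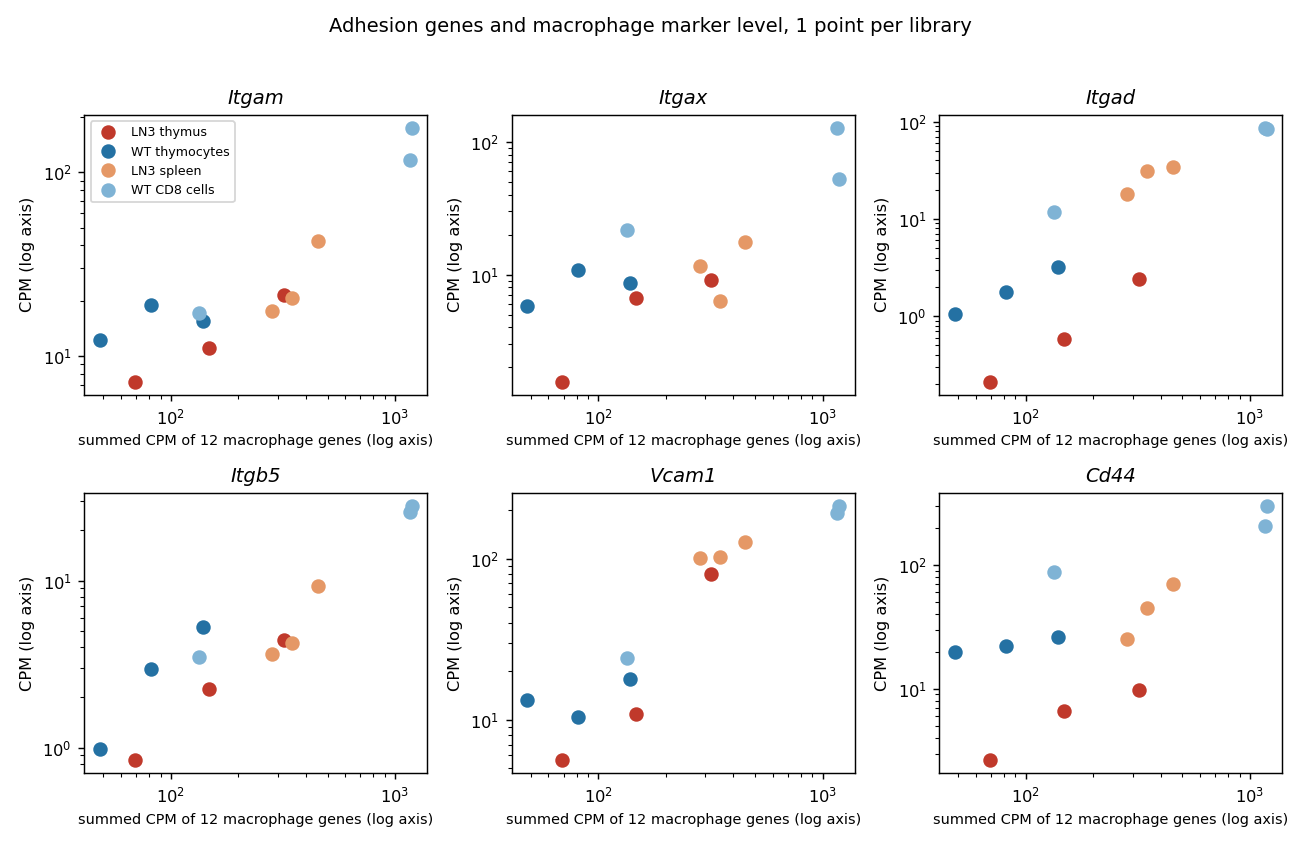
Level of 6 members (y axis, CPM, log scale) against the summed level of 12 red pulp macrophage genes (x axis, CPM, log scale), with 1 point per library and a colour per group. WT CD8 1 and 2, at 1163 and 1189 CPM of markers, are highest in all 6 members, while WT CD8 3, at 133.7 CPM, lies near the thymocytes for Itgam, Itgb5 and Vcam1.

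Itgav and Itgb3 form the vitronectin receptor, and Itga2b with Itgb3 the fibrinogen receptor of platelets. Itgav ran from 13.6 to 56.7 CPM in LN3 libraries and from 16.2 to 71.0 CPM in controls, and Itgb3 from 18.0 to 66.5 CPM and from 34.7 to 98.1 CPM. Neither was called in the thymus (Itgav −0.29, adjusted p = 0.757; Itgb3 −0.68, adjusted p = 0.397) or in the spleen (Itgav −0.56, adjusted p = 0.342; Itgb3 −0.33, adjusted p = 0.587). Itga2b measured 1.43, 0.827 and 0.648 CPM in LN3 thymus against 1.69, 3.31 and 2.84 CPM in WT thymocytes, and 11.4, 9.15 and 9.57 CPM in LN3 spleen against 34.7, 7.18 and 9.04 CPM in WT CD8 1 to 3. It was not called in either contrast with controls (thymus −1.43, adjusted p = 0.155; spleen −0.75, adjusted p = 0.304). The platelet markers were highest in the same WT CD8 1 library, at 56.06 CPM summed against 12.09 and 12.17 CPM. Itgb4, which pairs with alpha 6 on epithelium, was not called (thymus −0.07, adjusted p = 0.969; spleen 2.08, adjusted p = 0.0694); the spleen difference was called higher without LN3 thymus 2, without LN3 spleen 3 and by DESeq2 (adjusted p down to 0.0253). Itgb6 and Itgb8 were at 1.53 CPM or less in all 12 libraries and were not called in any comparison.

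Of the activators, Tln1 (talin) links the beta tail to actin and Fermt3 (kindlin-3) is its partner in blood cells. Tln1 measured 633, 754 and 598 CPM in LN3 thymus and 1045, 790 and 1711 CPM in WT thymocytes. The spleen libraries gave 895, 592 and 661 CPM in LN3 and 1292, 1382 and 1254 CPM in WT CD8 cells. The LN3 libraries were below their controls in both organs. The spleen difference was called, at 1.83-fold lower (log2 difference −0.87, SE 0.30, adjusted p = 0.0439), and the thymus difference of −0.84 was not (adjusted p = 0.0974). The spleen call ended without any of LN3 thymus 1 to 3, LN3 spleen 2 or 3, WT thymocytes 1 or WT CD8 1 to 3 (adjusted p up to 0.156). It also ended with the replicate number as a block (adjusted p = 0.0704), under DESeq2 size factors and with no filter on low counts. The thymus difference was called under library totals and upper-quartile factors (adjusted p down to 0.0125). Fermt3 measured 204, 393 and 252 CPM in LN3 thymus, 280, 222 and 534 CPM in WT thymocytes, 354, 264 and 320 CPM in LN3 spleen, and 236, 220 and 239 CPM in WT CD8 cells. It was not called in either organ (thymus −0.29, adjusted p = 0.657; spleen 0.43, adjusted p = 0.324, 95% interval −0.33 to 1.20).

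Of the LFA-1 ligands, Icam1 was called lower in both organs and Icam2 in the thymus. Icam1 measured 8.99, 16.1 and 12.1 CPM in LN3 thymus and 28.2, 21.8 and 44.2 CPM in WT thymocytes. Its spleen levels were 29.1, 17.2 and 13.8 CPM in LN3 and 81.0, 79.3 and 91.5 CPM in WT CD8 cells. The groups were separate in both organs, and Icam1 was 2.53-fold lower in the thymus (log2 difference −1.34, SE 0.34, adjusted p = 0.025) and 4.20-fold lower in the spleen (log2 difference −2.07, SE 0.35, adjusted p = 0.00107). The thymus call ended without LN3 thymus 1 or 3 or WT thymocytes 1 or 3 (adjusted p up to 0.0922). It also ended with the replicate number as a block (adjusted p = 0.0623) and in the fit of these 2 groups alone (adjusted p = 0.0596). The spleen call held in all 22 alternatives.

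Icam2, a second LFA-1 ligand, measured 23.9, 37.5 and 16.8 CPM in LN3 thymus and 47.4, 47.5 and 87.3 CPM in WT thymocytes. It was 2.33-fold lower there (log2 difference −1.22, SE 0.35, adjusted p = 0.042). The call ended without LN3 thymus 1 or 3, LN3 spleen 2 or 3, or any of the 6 WT libraries (adjusted p up to 0.147). It also ended with the replicate number as a block (adjusted p = 0.0985) and in the fit of these 2 groups alone (adjusted p = 0.0923). In the spleen, at 29.2, 17.5 and 18.9 CPM in LN3 and 33.1, 30.1 and 42.3 CPM in WT CD8 cells, the difference of −0.69 was not called (adjusted p = 0.146). Library totals, upper-quartile factors and the fit without the 3 libraries with the GC rise each called it lower (adjusted p down to 0.00791).

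Vcam1, the ligand of alpha 4 and alpha 9 integrins, is carried mainly by endothelium, stroma and macrophages. It measured 5.59, 10.8 and 79.8 CPM in LN3 thymus, 10.4, 13.3 and 17.9 CPM in WT thymocytes, 127, 101 and 102 CPM in LN3 spleen, and 192, 212 and 24.0 CPM in WT CD8 1 to 3. LN3 thymus 3 stood apart from the other 2 thymic leukaemia libraries, and was also the one with the most macrophage markers among them (319.7 CPM summed against 69.22 and 147.4 CPM). Neither contrast with controls was called (thymus 1.22, adjusted p = 0.426; spleen −0.38, adjusted p = 0.744). The part of macrophages in this gene was not tested.

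Selplg encodes the selectin ligand PSGL-1. In the spleen it measured 280, 145 and 120 CPM in LN3 and 520, 426 and 600 CPM in WT CD8 cells. The LN3 libraries were all lower, by 2.84-fold (log2 difference −1.50, SE 0.46, adjusted p = 0.0262), and the call ended without LN3 spleen 2 or 3 or WT CD8 1 or 3 (adjusted p up to 0.112) and against WT CD8 3 alone, where the difference was −1.70 (adjusted p = 0.128). The spleen call also ended with the replicate number as a block (adjusted p = 0.0519). In the thymus, at 124, 367 and 313 CPM in LN3 and 265, 196 and 504 CPM in WT thymocytes, the groups overlapped and Selplg was not called (−0.26, adjusted p = 0.781).

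Cd44, the hyaluronan receptor that marks early progenitors and antigen-experienced T cells, was the member called most often. It measured 2.65, 6.62 and 9.74 CPM in LN3 thymus, 22.3, 19.7 and 26.1 CPM in WT thymocytes, 70.8, 25.3 and 45.3 CPM in LN3 spleen, and 206, 300 and 87.9 CPM in WT CD8 cells. The LN3 groups were below their controls without overlap. Cd44 was 3.57-fold lower in the thymus (log2 difference −1.84, SE 0.52, adjusted p = 0.0398) and 4.21-fold lower in the spleen (log2 difference −2.07, SE 0.52, adjusted p = 0.00983). The thymus call ended without LN3 thymus 1 or 2, LN3 spleen 3, any of WT thymocytes 1 to 3, or WT CD8 1 (adjusted p up to 0.117), and with the 3 libraries with the GC rise left out (adjusted p = 0.201). It also ended with the replicate number as a block (adjusted p = 0.0841) and with no filter on low counts. Against WT CD8 3 alone the spleen difference was smaller, at −0.88, and was not called (adjusted p = 0.41). Within the spleen groups, the libraries with the highest Cd44 were those with the highest macrophage markers in LN3 (451.9 CPM in LN3 spleen 1) and in WT CD8 cells (1189 CPM in WT CD8 2). The sum in WT CD8 1 was close to that of WT CD8 2, at 1163 CPM, although Cd44 was 206 CPM there against 300 CPM. The part of macrophages in Cd44 was not tested.

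**Figure D4:**
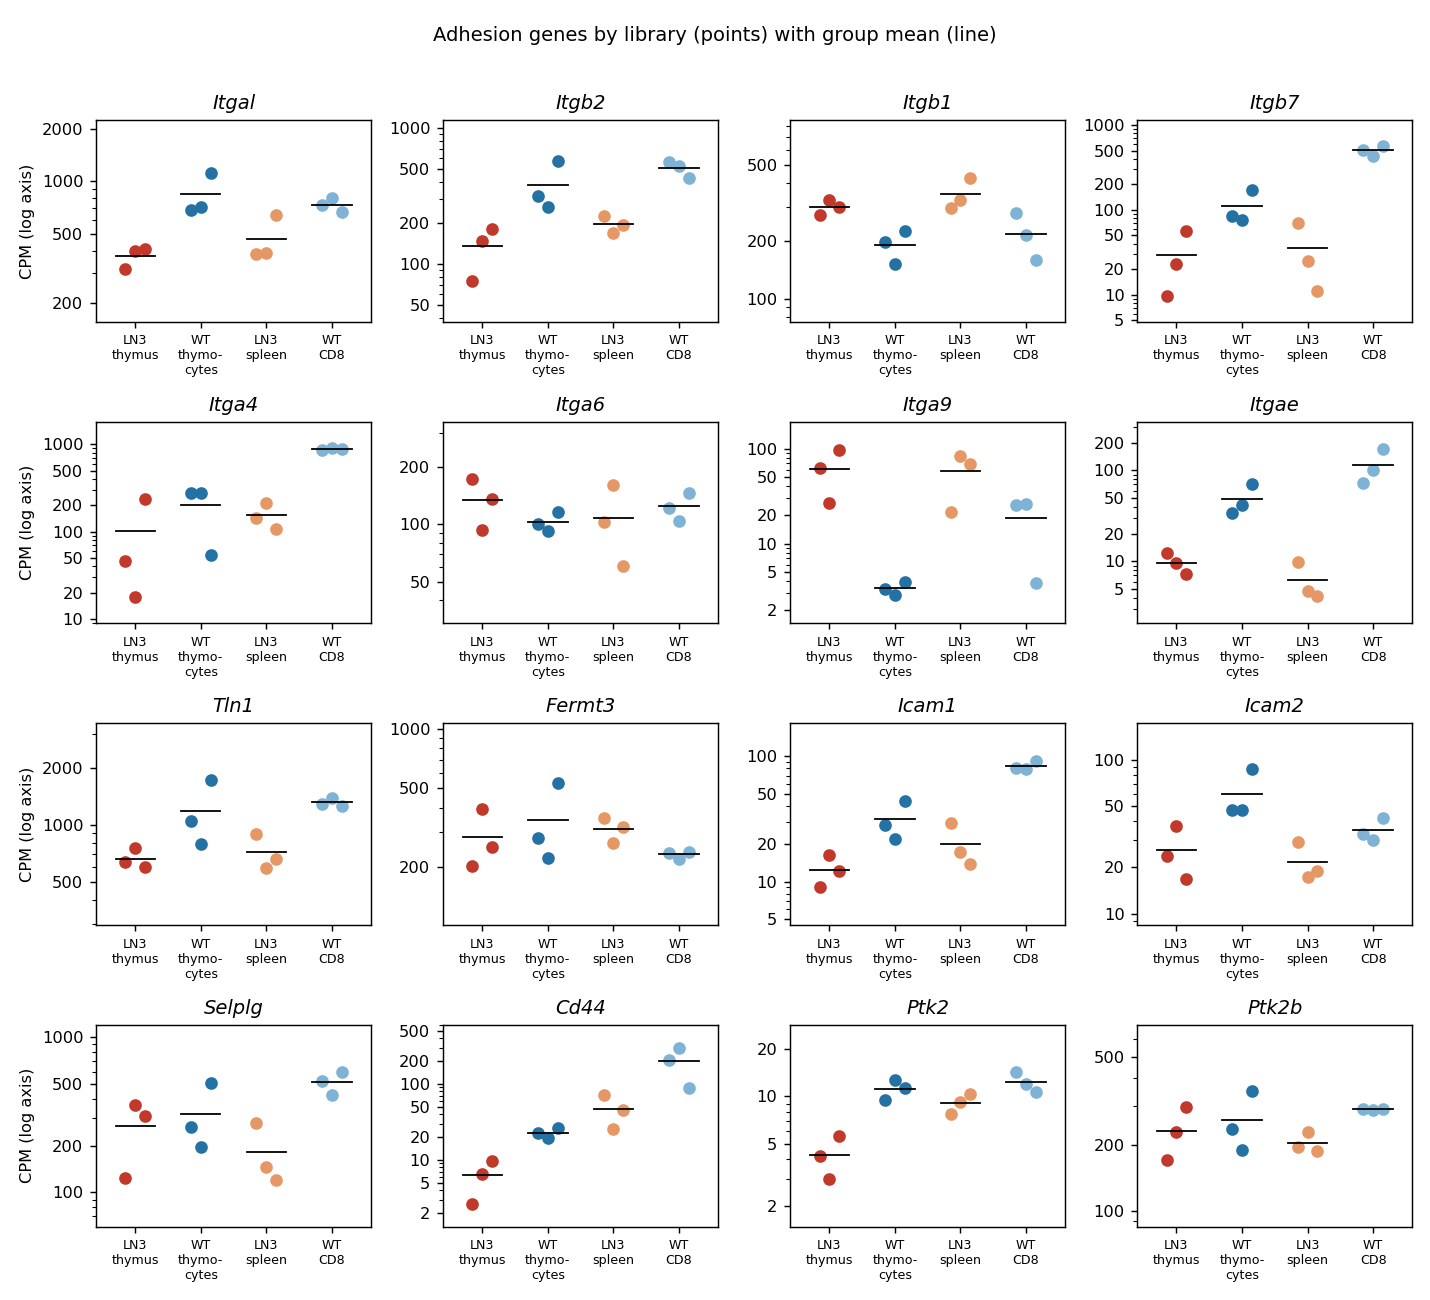
Level (y axis, CPM, log scale) of 16 members in the 3 libraries of each group (x axis), with points for libraries and a line for the group mean. Itga9 is the gene whose LN3 thymus points (26.6 to 96.2 CPM) lie far above the thymocytes (2.88 to 3.96 CPM), while Itgae, Itgb7 and Icam1 lie below their controls in both organs.

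Of the 2 adhesion kinases, Ptk2 was called lower in the thymus and Ptk2b was not called. Ptk2 (focal adhesion kinase) measured 4.20, 2.98 and 5.63 CPM in LN3 thymus and 9.46, 12.7 and 11.4 CPM in WT thymocytes. It was 2.60-fold lower there, with no overlap (log2 difference −1.38, SE 0.33, adjusted p = 0.0179). The call ended without LN3 thymus 1 or 2 or WT thymocytes 2 (adjusted p up to 0.0752), and with the 3 libraries with the GC rise left out (adjusted p = 0.0769). It also ended in the fit of these 2 groups alone (adjusted p = 0.0774), by limma and with no filter on low counts. Spleen levels were 7.76, 9.27 and 10.4 CPM in LN3 and 14.3, 11.9 and 10.8 CPM in WT CD8 cells, and the difference was not called (−0.43, adjusted p = 0.318). Ptk2b (Pyk2), the relative used in blood cells, measured 170, 229 and 296 CPM in LN3 thymus, 235, 190 and 348 CPM in WT thymocytes, 195, 228 and 188 CPM in LN3 spleen, and 290, 286 and 290 CPM in WT CD8 cells. It was not called (thymus −0.15, adjusted p = 0.785; spleen −0.50, adjusted p = 0.165), though the spleen difference was called lower under library totals, upper-quartile factors and the fit of the 2 groups alone (adjusted p down to 0.0111).

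Ptk2b outweighed Ptk2 in every library, also per kilobase, by 17.3-fold in WT thymocytes 2 to 89.2-fold in LN3 thymus 2. The log2 ratio of their CPM was 5.77 ± 0.46 (SD, n = 3) in LN3 thymus and 4.49 ± 0.53 in WT thymocytes, against 4.48 ± 0.27 in LN3 spleen and 4.56 ± 0.20 in WT CD8 cells. The thymic difference was 1.28, with every LN3 library above every control, and the splenic difference was −0.08. An exact two-sided permutation test gave p = 0.1 in the thymus, the smallest that 3 against 3 allows (0.2 after adjustment over 4 comparisons), and p = 0.7 in the spleen (adjusted 0.9).

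The 4 further lists of the pathway were read alongside the members. Of 18 tested genes of inside-out activation, 1 was called higher and 3 lower in the thymus (median −0.37 against −0.04 over all tested genes), and 0 higher and 7 lower in the spleen (median −0.53 against −0.11), which is 22.2% and 38.9% called against 11.3% and 30.9%. Rasgrp2, the exchange factor that loads Rap1 with GTP, measured 58.0, 67.9 and 66.6 CPM in LN3 thymus against 156, 195 and 212 CPM in WT thymocytes, and 93.0, 63.4 and 37.6 CPM in LN3 spleen against 344, 285 and 416 CPM in WT CD8 cells. It was lower in both (thymus −1.55, adjusted p = 0.0062; spleen −2.43, adjusted p = 0.00018). Apbb1ip (RIAM), which brings talin to integrins, was also lower in both (thymus −1.36, adjusted p = 0.00768; spleen −1.50, adjusted p = 0.00183). Rapgef2, another Rap1 exchange factor, was higher in the thymus (1.75, adjusted p = 0.00935), and Rasa3, which turns Rap1 off, was lower in the spleen (−2.67, adjusted p = 0.00353). These 6 calls held in all 22 alternatives.

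Of 39 tested genes of the adhesion plaque and outside-in signalling, 4 were called higher and 4 lower in the thymus, and 6 higher and 4 lower in the spleen, with medians of −0.18 and 0. The called share was 20.5% in the thymus and 25.6% in the spleen, against 11.3% and 30.9% of all tested genes. Vcl (vinculin), which ties talin to actin, measured 73.5, 75.4 and 53.2 CPM in LN3 thymus and 6.82, 5.64 and 10.8 CPM in WT thymocytes. It was 8.72-fold higher (log2 difference 3.12, SE 0.52, adjusted p = 0.00245) in all 22 alternatives. Parva (alpha-parvin) was higher in both organs (thymus 1.94, adjusted p = 0.0475; spleen 2.20, adjusted p = 0.0127), although its thymus call ended without any 1 of 11 of the 12 libraries (adjusted p up to 0.13), LN3 spleen 3 being the exception. The Parva call in the spleen ended under library totals and against WT CD8 3 alone (adjusted p up to 0.17). The thymus call of Parva also ended under library totals, upper-quartile factors and the replicate block, and without the 3 libraries with the GC rise (adjusted p = 0.122). Tns1 (tensin) was lower in the thymus (−1.88, adjusted p = 0.0219), but not when LN3 thymus 1 or 2 or WT thymocytes 1 or 3 was left out (adjusted p up to 0.0839) or the 3 libraries with the GC rise (adjusted p = 0.227). The Tns1 call also ended in the fit of the 2 groups alone. In the spleen Zyx (zyxin; −2.37, adjusted p = 0.00546) and the integrin-tail binder Flna (filamin A; −1.92, adjusted p = 0.00285) were lower, and both calls ended against WT CD8 3 alone at differences of −2.32 and −1.81 (adjusted p = 0.0679 and 0.0664).

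Of 22 tested matrix and other integrin ligands, 3 were called higher and 2 lower in the thymus, and 5 higher and 1 lower in the spleen, with medians of 0.36 and 0.32. The called share was 22.7% and 27.3%, against the same 11.3% and 30.9%. Lamb2, a laminin beta chain, measured 90.8, 91.1 and 99.2 CPM in LN3 thymus and 1.89, 1.41 and 4.82 CPM in WT thymocytes. In the spleen it measured 80.8, 114 and 61.3 CPM in LN3 and 0.273, 0.158 and 0.285 CPM in WT CD8 cells. The groups were far apart in both organs (thymus 5.13, adjusted p = 3.63e-05; spleen 8.45, adjusted p = 1.21e-06). Lamb1 was higher in the thymus (4.06, adjusted p = 0.00193), at 33.5, 57.2 and 11.5 CPM against 2.43, 2.52 and 1.12 CPM. Spp1 (osteopontin), a ligand of alpha 9 beta 1, was at 0.882, 12.7 and 10.1 CPM in LN3 thymus and at 4.01, 2.87 and 5.52 CPM in LN3 spleen, and at 0.190 CPM or less in all 6 control libraries (thymus adjusted p = 0.00254; spleen adjusted p = 0.00255).

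The Lamb2, Lamb1 and Spp1 calls held in all 22 alternatives. Col1a2, a collagen chain, was higher in LN3 spleen (7.86, adjusted p = 0.00701), unevenly, at 1.22, 249.4 and 143 CPM against 0.506 to 0.613 CPM in WT CD8 cells, and its call ended against WT CD8 3 alone at a difference of 7.73 (adjusted p = 0.248). The 10 fibroblast markers, Col1a2 among them, summed to 92.9 to 378.7 CPM in LN3 libraries and to 3.879 to 29.51 CPM in controls. In LN3 spleen 1 to 3 the sum was 131.8, 378.7 and 208.8 CPM, so Col1a2 made up most of it in 2 and 3 but little in 1. Of 8 tested markers, 7 were above 0 and 1 below in the thymus, with 2 called higher. In the spleen 6 were above 0 and 2 below, with 3 called higher, and 0 were called lower in either organ. The part of stroma in the ligand genes was not tested.

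Of 15 tested selectin and hyaluronan partners, 2 were called higher and 1 lower in the thymus, and 5 higher and 4 lower in the spleen, with medians of 0.21 and −0.44. The called share was 20.0% and 60.0%, against 11.3% and 30.9% of all tested genes. St3gal6, a sialyltransferase of selectin ligands, measured 0.126, 0.248 and 0.338 CPM in LN3 thymus and 10.8, 9.02 and 9.46 CPM in WT thymocytes (log2 difference −5.30, adjusted p = 0.000374). Fut4, a fucosyltransferase of the same glycans, was higher in both organs (thymus 3.01, adjusted p = 0.00564; spleen 1.90, adjusted p = 0.0193). Without the 3 libraries with the GC rise both Fut4 calls ended (adjusted p = 0.0578 and 0.0546), and the spleen call also ended under library totals (adjusted p = 0.0602). In the spleen Sele (E-selectin) was lower, at 0.228 to 0.637 CPM in LN3 against 6.07, 7.53 and 7.66 CPM in WT CD8 cells (−3.98, adjusted p = 0.000861), and Tpst1, which sulphates PSGL-1, was higher (1.96, adjusted p = 0.00189).

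The LN3 samples of the 2 organs, both without enrichment, differed in 3 members, all higher in LN3 spleen than in LN3 thymus. These were Itga2b (log2 difference 3.37, SE 0.62, adjusted p = 0.0342), Itgad (4.62, SE 0.88, adjusted p = 0.0347) and Cd44 (2.89, SE 0.54, adjusted p = 0.0347). Of all tested genes 0.723% were called in this comparison, 0.694% higher and 0.0287% lower, and the member median was 0.29 against −0.05. The CPM of the organs did not overlap for 5 members, all higher in LN3 spleen, against 6.22% of all tested genes higher and 5.24% lower. The per-library values given above did not overlap between the organs for any of the 3. Each call ended without LN3 thymus 1 or 2 or LN3 spleen 1 or 3, and also without LN3 thymus 3 for Itga2b and Cd44 and without any of WT thymocytes 1 to 3 for Itgad and Cd44 (adjusted p up to 0.168). The titles number the leukaemias alike in both organs, but do not say whether equal numbers mean the same mouse. With the number as a replicate block 0 of the 3 calls were made, at nearly the same differences (Itga2b 3.46, adjusted p = 0.0684; Itgad 4.79, adjusted p = 0.102; Cd44 2.90, adjusted p = 0.106). Without the 3 libraries with the GC rise 0 members were called. Summed macrophage markers were 283 to 451.9 CPM in LN3 spleen and 69.22 to 319.7 CPM in LN3 thymus, and summed platelet markers 15.32 to 25.72 CPM and 5.377 to 9.377 CPM. Their part in the 3 differences was not tested. Beyond the members, St3gal6 was higher in LN3 spleen, at 10.03, 3.71 and 24.3 CPM (5.67, adjusted p = 0.00624), but not when LN3 thymus 1 (adjusted p = 0.0714) or the 3 libraries with the GC rise (adjusted p = 0.191) were left out. The erythroid ligand Icam4 was at 3.40, 0.753 and 4.38 CPM in LN3 spleen and 0.0840 CPM or less in LN3 thymus (adjusted p = 0.0248). The Icam4 call ended without any of LN3 thymus 1 to 3 or LN3 spleen 1 or 3 (adjusted p up to 0.128), and its level went with the erythroid markers, whose part was not tested.

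The control samples of the 2 organs differed more. In WT CD8 cells against WT thymocytes, 12 members were called higher and 0 lower (Itga1, Itga2, Itga2b, Itga9, Itgam, Itgax, Itgad, Itgb5, Itgb7, Icam1, Vcam1 and Cd44), while 15.7% of all tested genes were called, 7.24% higher and 8.49% lower. The member median was 0.46 against 0. Markers of other cells were also called higher: 8 of 12 macrophage, 10 of 16 myeloid and 7 of 8 NK-cell genes. So were 5 of 12 B-cell, 3 of 8 platelet and 1 of 14 dendritic-cell markers, with 0 called lower in these lists. The part of such cells in the member calls was not tested. The CPM of the groups did not overlap for 12 members that were higher and 2 that were lower, against 17.5% and 19.0% of all tested genes. Cd44 was 8.72-fold higher (log2 difference 3.12, SE 0.54, adjusted p = 0.00213) and Itgb7 was 4.55-fold higher (log2 difference 2.18, SE 0.67, adjusted p = 0.0425). Icam1 was 2.68-fold higher (log2 difference 1.42, SE 0.34, adjusted p = 0.0142). With WT CD8 3 alone only Itga2 was called (3.72, adjusted p = 0.0443) and the other 11 were not.

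Leaving out single libraries also ended calls of this comparison. Without WT CD8 1 the calls of Itga1, Itga2b, Itga9, Itgax, Itgb5, Itgb7 and Vcam1 ended, and without WT CD8 2 those of Itga1, Itga9, Itgam, Itgb5, Itgb7 and Vcam1. Itga9, Itgam, Itgb5, Itgb7 and Vcam1 lost the call without any of WT thymocytes 1 to 3, Itga1 and Itgax without WT thymocytes 2 or 3, and Icam1 without WT thymocytes 1 or 2. Itgb7 also lost it without WT CD8 3, LN3 thymus 2 or LN3 spleen 2, and Itgb5 without LN3 thymus 2 or any of LN3 spleen 1 to 3. The adjusted p without these libraries was 0.151 at most, for Itgb5. The WT CD8 libraries serve here and in the leukaemia comparison of the spleen, so the 2 sets of differences are not independent. Side by side, Itgb7 was 4.55-fold higher in WT CD8 cells than in thymocytes and 14.5-fold lower in LN3 spleen than in WT CD8 cells, and Icam1 2.68-fold higher and 4.20-fold lower.

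The 2 organs have different control cells, so organ and control cell type cannot be told apart in what follows. The difference between the splenic and the thymic contrast with controls was tested as an interaction of organ and genotype. It was called for 1 of 34 members, Itga2 (−4.59, SE 1.06, adjusted p = 0.0286), where 4.19% of all tested genes were called, 3.29% higher and 0.895% lower. The Itga2 call ended without LN3 thymus 3, LN3 spleen 2 or 3, WT thymocytes 2 or WT CD8 1 (adjusted p up to 0.092), by limma, without the 3 libraries with the GC rise and against WT CD8 3 alone (adjusted p up to 0.214). For Itgae, which fell further in the spleen, the interaction of −1.91 was not called (adjusted p = 0.1, 95% interval −3.27 to −0.54); it was called under library totals, without LN3 spleen 1 and without the 3 libraries with the GC rise (adjusted p down to 0.0345). For Itga9 the interaction was −2.55 (adjusted p = 0.172) and for Ptk2 0.95 (adjusted p = 0.307), so the data did not show that their effects differed between the organs.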

How the data were processed

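Poly(A) RNA of 12 samples in 4 groups was sequenced in read pairs. The authors deposited estimated counts per gene, made with kallisto 0.46.1 on GRCm38 per the submitters' processing notes, and variance-stabilized log2 values, for which the notes name DESeq2. For the annotation release and the strand setting, the sources used here give nothing. All deposited counts were whole numbers. Members and lists were chosen with earlier results of these data known.

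Genes were tested with edgeR 4.0.16 (quasi-likelihood, robust, TMM scaling, filterByExpr, R 4.3.3) in 1 fit of 4 group means over 12 libraries with 8 residual degrees of freedom, and p-values were adjusted by Benjamini-Hochberg over 20897 genes. The common biological coefficient of variation was 0.4411. Levels are TMM-scaled CPM. A limit of 3 counts corresponded to 0.0657 to 0.262 CPM, which covers counting error only. Levels per kilobase used the longest protein-coding GENCODE M21 transcript. All members are named, and of each other list the 3 called genes with the largest difference in each comparison, except 1 that is not reported here. Shares and ratios were tested by exact permutation (scipy 1.17.1). The fit was tested on simulated data. Alternatives were other scalings, no filter on low counts, a replicate block, the compared groups alone, each library left out, DESeq2 1.42.0 and limma 3.58.1 on the log2 values. Leaving out 3 libraries with a GC rise, WT CD8 3 as the only CD8 control and the macrophage list were chosen after the data were seen.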

Additional observations from a re-analysis of the deposited data

Results flagged for a closer look

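The contrast of leukaemia with control for Itga2, the collagen-binding alpha 2 chain, differed between the organs by −4.59 on the log2 scale (adjusted p = 0.0286, edgeR's quasi-likelihood test of the interaction of organ and genotype). Its mean level in CPM per kilobase was 0.159 in LN3 thymus, 0.183 in LN3 spleen, 0.123 in WT thymocytes and 3.35 in WT CD8 cells. The controls of the 2 organs were different cells, so organ and control cell type cannot be told apart. Itga2 was lower in all 3 LN3 spleen libraries than in all 3 WT CD8 libraries, while the thymus groups overlapped. Summed NK-cell markers were 770.9, 286.1 and 303.2 CPM in WT CD8 1 to 3 against 115.8 to 163 CPM in LN3 spleen, 123.8 to 259.9 CPM in LN3 thymus and 36.01 to 50.67 CPM in WT thymocytes. The higher sum in LN3 thymus than in thymocytes did not hold for most of the 8 markers. There 7 were below 0 and 1 above, with 2 called lower and 1 higher (median log2 difference −1.44). In LN3 spleen against WT CD8 cells 7 were called lower and 0 higher (median −5.44). The part of NK cells in the Itga2 result was not tested.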

How the results depend on the processing

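Of 38 member calls over the 5 comparisons, 7 held in all alternatives run, 31 ended in at least 1, and 27 ended when a single library was left out. Of 132 uncalled member values, 54 changed sign in at least 1 alternative and 19 were called in at least 1. With the replicate block the member counts were 5 of 9 in the thymus, 8 of 13 in the spleen and 0 of 3 between the leukaemic organs, where 31 genes in place of 151 were called, and 532 genes in place of 875 were called for the interaction. Whether equal numbers of the LN3 organs mark the same mouse is not stated. After removal of group means, same-numbered libraries of the LN3 organs correlated at −0.15, −0.528 and −0.0412, which gave no sign of pairing by number. Unequal numbers reached 0.464 (LN3 thymus 2 with LN3 spleen 1) and 0.429 (LN3 thymus 3 with LN3 spleen 2). A value of 0.505 also arose between LN3 thymus 2 and WT thymocytes 3, so such values do not settle which libraries share a mouse. Same-numbered libraries of LN3 thymus and WT thymocytes correlated at 0.142, −0.518 and −0.134, and those of LN3 spleen and WT CD8 at 0.336, −0.197 and 0.142. Fitting only the groups compared gave 1479 genes in place of 2354 and 3 members in the thymus, and 1 member between the leukaemic organs. Library totals gave 43 genes and 0 members between the leukaemic organs and 2 members for the interaction. DESeq2 gave 651 genes between the leukaemic organs and 1738 for the interaction, where limma called 0 members. At an unadjusted p below 0.05 edgeR gave 5 members (14.7%) between the leukaemic organs and 3 (8.82%) for the interaction, against 8.7% and 17.5% of all tested genes.

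Without the 3 libraries with the GC rise 5 members were called in the thymus, 1 gene and 0 members between the leukaemic organs, and 7 members between the WT groups. With WT CD8 3 as the only CD8 control, 4 members were called in the thymus, 1847 genes in place of 6453 and 5 members in the spleen, 643 genes in place of 3287 and 1 member between the WT groups, and 288 genes and 0 members for the interaction. The share of higher calls between the WT groups then moved from 46.0% to 37.5%. Itgam (0.66) and Itgb5 (0.72) reversed in the spleen under this setting. The cause was not tested for any of these.

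Leaving out each library in turn gave 1203 to 2737 genes and 2 to 10 members in the thymus, 3999 to 8582 genes and 6 to 13 members in the spleen, 0 to 255 genes and 0 to 3 members between the leukaemic organs, 1871 to 3284 genes and 4 to 13 members between the WT groups, and 463 to 880 genes and 0 to 2 members for the interaction. Without LN3 thymus 1, 2 members were called in the thymus, and without LN3 thymus 2, WT thymocytes 1 or WT thymocytes 2, 5 were. Without LN3 spleen 2, 8 members were called in the spleen, and without WT CD8 1, 6 were. The difference between groups in the log2 ratio of Ptk2b to Ptk2 then ranged from −0.186 to 0.075 for LN3 spleen against WT CD8 cells. Between the WT groups this difference ranged from −0.224 to 0.295. The difference changed sign without LN3 spleen 3 (0.075) or WT CD8 3 (0.0173) in the spleen, and without WT thymocytes 2 (−0.224) or WT CD8 3 (−0.025) between the WT groups. With 3 libraries in a group, genes near the 3-count limit in some libraries, such as Itga8 and Itgb8, allow no statement on small differences.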
